A study of Mus musculus with 12 samples.

Results

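Regulatory T cells are the CD4 T cells that restrain immune responses, and FOXP3 is the transcription factor that defines them. They carry the high-affinity interleukin-2 receptor, display latent TGF-beta on their surface and turn extracellular ATP into immunosuppressive adenosine. Genes of these functions were followed here in CD4 and CD8 T cells sorted from mouse spleen cultures. The 10 genes, Foxp3, Il2ra, Ikzf2, Ikzf4, Lrrc32, Gpr83, Nrp1, Nt5e, Entpd1 and Capg, were taken as a fixed list of names, each measured by the probe set that carries its symbol alone, and 10 of 10 had 1 such probe set among the 22180 named genes of the array. Averaged over the 12 arrays, all 10 lay above the limit set for low values (log2 4.28). They were thus among the 14323 genes tested. Nrp1 passed that limit through its CD4 arrays, as its CD8 means (4.09 with linoleic acid, 4.15 in control culture) lay below it.

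The study sets the response of CD4 T cells to linoleic acid, a polyunsaturated dietary fatty acid, against that of CD8 T cells. Whole mouse splenocytes spent 24 h in medium containing linoleic acid (50 µM) or in control medium and were sorted afterwards, so the T cells met the fatty acid among all other spleen cells. The 4 groups were CD4 T cells with linoleic acid, CD4 T cells of control culture, CD8 T cells with linoleic acid and CD8 T cells of control culture, with 3 arrays each numbered 1 to 3. The labels used here name no strain, age or sort gate. They do not say whether a number marks an animal or a culture either, so the p-values measure only how far these samples spread, and that spread may be technical. The sort divided cells by CD4 and CD8 and did not isolate regulatory T cells, and in such bulk RNA more regulatory T cells in a sample cannot be told apart from more RNA of these genes per cell. Values are log2 RMA intensities, in which 1 unit is a 2-fold difference.

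The arrays matched their labels. Cd4 was 32.8-fold higher in CD4 than in CD8 T cells over both cultures, and Cd8a was 33.0-fold lower. Array medians ran from 4.66 to 4.80. B cell markers were not absent from the sorts: the mean of 13 of them was 6.22 to 6.25 in the CD4 arrays numbered 1 and 5.79 in both CD8 arrays numbered 1, and 7.38 to 7.63 (CD4) and 7.01 to 7.14 (CD8) in arrays numbered 2 and 3. Cd4 itself stood at 5.1 to 5.3 in the CD8 arrays numbered 1 and at 6.0 to 6.5 in those numbered 2 and 3. Cd8a likewise stood at 5.0 to 5.4 in the CD4 arrays numbered 1 and at 6.2 to 6.8 in those numbered 2 and 3.

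The promoters of Foxp3 and Il2ra are shown because these genes had the largest cell type differences in control culture among the 10. RefSeq windows of 250 bases before to 50 bases after a transcript start (build GRCm38.p6, plus strand) were available for 7 of the 10 genes, Foxp3 and Entpd1 having 2 each. Both strands were searched for the forkhead motif TGTTTAC, the STAT5 motif TTCNNNGAA, the RUNX motif TGTGGT and the NFAT motif TGGAAA, which occur in 3.65%, 8.3%, 16.8% and 21.4% of 32851 windows of this length. The second Foxp3 window holds a STAT5 match, TTCCAAGAA, overlapped by an NFAT match on the minus strand, 139 and 140 bases before the start. The other match was a RUNX motif in the second Entpd1 window. Capitals mark the overlapping pair of matches, and the windows without capitals hold none of these letters.
Foxp3 upstream start, chrX:7579426-7579725: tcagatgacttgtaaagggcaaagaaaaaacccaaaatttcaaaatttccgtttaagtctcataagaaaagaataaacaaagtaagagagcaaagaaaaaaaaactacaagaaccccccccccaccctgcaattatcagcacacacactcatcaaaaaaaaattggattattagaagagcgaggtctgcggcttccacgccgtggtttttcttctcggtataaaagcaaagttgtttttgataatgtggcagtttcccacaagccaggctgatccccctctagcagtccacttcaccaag
Foxp3 downstream start, chrX:7580233-7580532: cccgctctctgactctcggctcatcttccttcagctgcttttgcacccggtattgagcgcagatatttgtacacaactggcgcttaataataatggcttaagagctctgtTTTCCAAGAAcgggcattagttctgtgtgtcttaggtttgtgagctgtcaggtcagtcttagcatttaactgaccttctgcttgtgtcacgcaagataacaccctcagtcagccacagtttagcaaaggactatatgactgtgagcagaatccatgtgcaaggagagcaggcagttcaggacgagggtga
Il2ra, chr2:11642542-11642841: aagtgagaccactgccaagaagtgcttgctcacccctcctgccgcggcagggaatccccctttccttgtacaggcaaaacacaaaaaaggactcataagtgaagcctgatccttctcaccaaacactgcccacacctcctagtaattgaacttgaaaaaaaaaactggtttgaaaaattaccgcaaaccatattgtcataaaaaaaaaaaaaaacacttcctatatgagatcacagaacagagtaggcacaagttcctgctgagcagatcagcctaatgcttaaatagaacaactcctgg
The Il2ra window holds 3 CpG dinucleotides and the Foxp3 windows 6 and 8, against a median of 7 over all windows, whereas those of Nt5e and Gpr83 hold 23 and 24.

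Seen across the 4 groups, the 10 genes formed 3 patterns. Foxp3, Il2ra, Lrrc32, Gpr83 and Nrp1 were 2.90-fold to 9.68-fold higher in CD4 than in CD8 T cells, Ikzf2, Ikzf4, Entpd1 and Capg were 1.38-fold to 1.75-fold higher, and Nt5e was the one gene with a lower mean in CD4 T cells. These folds are means over both cultures, a comparison added after the data were seen. Linoleic acid moved 0 of the 10 past the threshold in either cell type (0% of all tested genes in each).

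**Figure D1:**
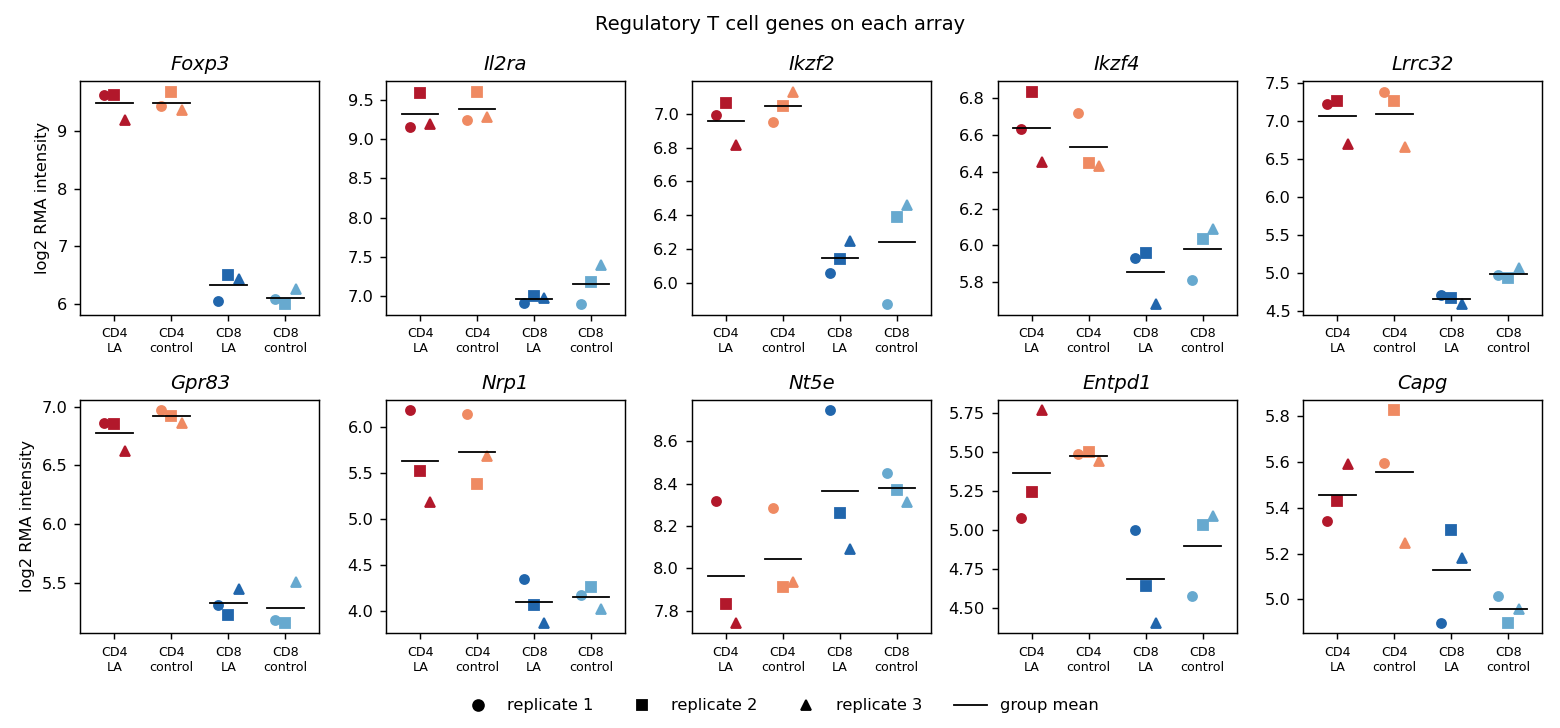
Log2 RMA intensity of the 10 genes (1 panel each, each with its own axis) on the 3 arrays of each group, with the group mean as a line and the replicate number as the symbol. For 7 genes all 6 CD4 arrays lie above all 6 CD8 arrays (2.64% of all tested genes), and the linoleic acid and control arrays of a cell type lie at similar heights.

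Foxp3, on the X chromosome, had the largest difference of the 10. With linoleic acid it read 9.64, 9.63 and 9.20 in CD4 T cells, against 6.05, 6.51 and 6.43 in CD8 T cells. In control culture it read 9.44, 9.69 and 9.37 in CD4 T cells and 6.08, 5.99 and 6.25 in CD8 T cells. The lowest CD4 array, at 9.20, thus stood far above the highest CD8 array, at 6.51. The difference was 3.16 ± 0.16 (SE, limma adjusted p = 1.33e-07, n = 3 per group) in linoleic acid culture and 3.39 ± 0.16 (adjusted p = 6.65e-08) in control culture. In control culture no tested gene had a smaller p, and 4 genes had a larger difference in either direction. Same-numbered CD4 and CD8 arrays differed by 3.59, 3.12 and 2.77 with linoleic acid. In control culture, where the numbers were not taken as pairs, they differed by 3.36, 3.70 and 3.12.

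Il2ra encodes CD25, the alpha chain that gives the interleukin-2 receptor its high affinity and that regulatory T cells carry constantly. It read 9.15, 9.59 and 9.19 in CD4 arrays with linoleic acid, against 6.92, 7.005 and 6.97 in CD8 arrays. The control arrays read 9.24, 9.60 and 9.29 for CD4 and 6.90, 7.18 and 7.39 for CD8. The groups did not overlap in either culture, with differences of 2.35 ± 0.16 (limma adjusted p = 9.56e-07) with linoleic acid and 2.22 ± 0.16 (adjusted p = 1.44e-06) in control culture. The CD8 arrays with linoleic acid were the tightest set, with an SD of 0.04, against 0.25 in CD8 control arrays.

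Lrrc32 encodes GARP, which anchors latent TGF-beta on the regulatory T cell surface. In linoleic acid culture it read 7.23, 7.27 and 6.70 in CD4 arrays, against 4.72, 4.68 and 4.59 in CD8 arrays. In control culture the CD4 arrays read 7.39, 7.26 and 6.66 and the CD8 arrays 4.98, 4.93 and 5.07. The CD8 arrays lay below log2 5.11, the 95th percentile of 1405 olfactory, vomeronasal and trace amine receptor genes, families that serve mainly the sense of smell. The differences were 2.40 ± 0.19 (limma adjusted p = 3.99e-06) with linoleic acid and 2.11 ± 0.19 (adjusted p = 1.4e-05) in control culture. Where the CD8 values lie in this background range, as for Lrrc32 and Nrp1, a difference or fold is one of measured intensities and may understate the difference in RNA, and the likeness of profiles given further on carries the same limit.

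Gpr83 is a G protein-coupled receptor that FOXP3 induces in mouse T cells, and Nrp1 is neuropilin-1, a semaphorin and VEGF co-receptor found on thymus-derived regulatory T cells of the mouse. Gpr83 read 6.86, 6.85 and 6.62 in CD4 arrays with linoleic acid and 5.31, 5.23 and 5.45 in CD8 arrays, a difference of 1.44 ± 0.13 (limma adjusted p = 1.21e-05). Its control values were 6.97, 6.92 and 6.86 for CD4 and 5.18, 5.16 and 5.51 for CD8, a difference of 1.63 ± 0.13 (adjusted p = 3.49e-06). The SD of Gpr83 was 0.14 in CD4 arrays with linoleic acid, 0.05 in CD4 control arrays, 0.11 in CD8 arrays with linoleic acid and 0.20 in CD8 control arrays.

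Nrp1 varied most of the 10 genes within the CD4 linoleic acid group, with an SD of 0.51. It read 6.18, 5.52 and 5.19 in CD4 arrays with linoleic acid and 4.35, 4.06 and 3.87 in CD8 arrays. The control arrays read 6.14, 5.38 and 5.68 for CD4 and 4.18, 4.26 and 4.02 for CD8. The groups stayed apart all the same, with differences of 1.54 ± 0.24 (limma adjusted p = 0.00248) and 1.58 ± 0.24 (adjusted p = 0.00188), and the CD8 arrays lay below log2 5.11 throughout.

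Ikzf2 and Ikzf4 encode Helios and Eos, Ikaros-family zinc finger proteins; Eos acts with FOXP3 in gene silencing, and Helios marks many regulatory T cells of thymic origin. Ikzf2 read 6.99, 7.06 and 6.82 in CD4 arrays with linoleic acid, against 6.06, 6.14 and 6.24 in CD8 arrays. In control culture it read 6.96, 7.05 and 7.13 (CD4) and 5.87, 6.39 and 6.46 (CD8). The differences were 0.81 ± 0.15 in both cultures (limma adjusted p = 0.0102 with linoleic acid and 0.00965 in control culture). Ikzf4 averaged 6.64 ± 0.19 (SD, n = 3) in CD4 and 5.86 ± 0.15 in CD8 arrays with linoleic acid, and 6.53 ± 0.16 and 5.98 ± 0.15 in control culture. It passed with linoleic acid (0.78 ± 0.14, adjusted p = 0.00814) and not in control culture (0.55 ± 0.14, adjusted p = 0.066), although its arrays did not overlap in either. The difference between these 2 values, 0.23, had a limma adjusted p of 0.953.

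Entpd1 (CD39) and Nt5e (CD73) are the ectoenzymes that take ATP to AMP and AMP to adenosine in sequence. Entpd1 read 5.07, 5.24 and 5.77 in CD4 arrays with linoleic acid and 5.001, 4.64 and 4.41 in CD8 arrays. Its control values were 5.49, 5.496 and 5.44 for CD4 and 4.58, 5.03 and 5.09 for CD8. The groups did not overlap in either culture, and the differences of 0.68 ± 0.20 (limma adjusted p = 0.123, and 0.0424 with the replicate number as a block) with linoleic acid and 0.58 ± 0.20 (adjusted p = 0.242) in control culture did not pass without a block. All CD8 values and 1 CD4 value of Entpd1 lay below log2 5.11, the gauge of background.

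Nt5e stood at similar heights in both cell types and leaned the other way. It read 8.32, 7.83 and 7.74 in CD4 arrays with linoleic acid, against 8.75, 8.26 and 8.09 in CD8 arrays. In control culture it read 8.29, 7.91 and 7.93 (CD4) and 8.45, 8.37 and 8.31 (CD8). In control culture the 3 CD4 arrays lay below the 3 CD8 arrays, as for 8.52% of all tested genes, and with linoleic acid the groups overlapped. The differences were -0.40 ± 0.19 (limma adjusted p = 0.419) with linoleic acid and -0.33 ± 0.19 (adjusted p = 0.668) in control culture. With the replicate number as a block the difference with linoleic acid had an SE of 0.12 and a limma adjusted p of 0.0644. With linoleic acid, where numbers were taken as pairs, same-numbered arrays differed by -0.43, -0.43 and -0.35, CD4 being the lower. The 2 enzymes of the adenosine route thus had cell type differences of opposite sign. Without a block neither passed the threshold within a culture, and with the block Entpd1 passed with linoleic acid (limma adjusted p = 0.0424).

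Capg, which caps the ends of actin filaments and belongs to published regulatory T cell signatures, averaged 5.46 ± 0.13 in CD4 and 5.13 ± 0.21 in CD8 arrays with linoleic acid. In control culture the means were 5.56 ± 0.29 and 4.96 ± 0.06. Its arrays did not overlap in either culture, and its differences were 0.33 ± 0.15 (limma adjusted p = 0.422) with linoleic acid and 0.60 ± 0.15 (adjusted p = 0.0697) in control culture. Of its 6 CD8 values 4 lay below log2 5.11, all 3 of the control arrays (4.90 to 5.01) among them.

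**Figure D2:**
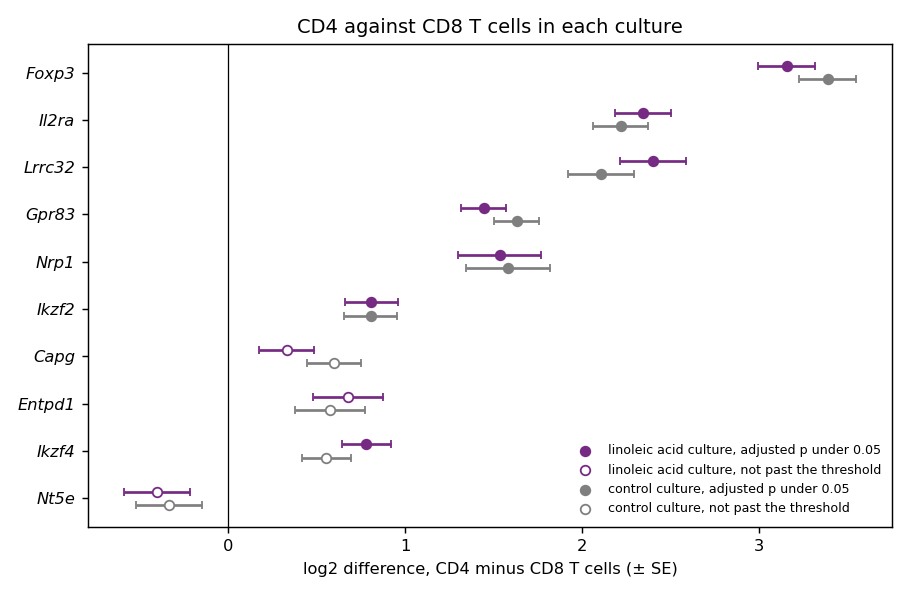
Log2 difference between CD4 and CD8 T cells (x axis, with SE) for each gene in linoleic acid culture and in control culture, filled where the limma adjusted p is under 0.05. Foxp3 lies at 3.16 and 3.39, 9 genes lie to the right of 0 in both cultures, and Nt5e lies to its left in both.

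Counted together, 7 of the 10 genes were higher in CD4 T cells in linoleic acid culture and 6 in control culture, where 1.31% and 0.929% of all tested genes were called higher, and none of the 10 was called lower. Nrp1, which passed the limit for low values through its CD4 arrays, is among these calls in both cultures. In both cultures the arrays of 9 of the 10 did not overlap, CD4 being higher, as for 8.98% of all genes with linoleic acid and 7.53% in control culture. The median difference of the 10 was 1.13 with linoleic acid and 1.19 in control culture, against 0.02 and -0.00 for all tested genes. Averaged over both cultures 9 of 10 were higher (2.76% of all genes), Entpd1 at 0.63 ± 0.14 (limma adjusted p = 0.0156), Capg at 0.46 ± 0.11 (adjusted p = 0.0218) and Ikzf4 at 0.67 ± 0.10 (adjusted p = 0.000812) among them, while Nt5e at -0.37 ± 0.13 did not pass (adjusted p = 0.168, and 0.00993 with the replicate number as a block). For 7 genes all 6 CD4 arrays lay above all 6 CD8 arrays, as for 2.64% of all genes.

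Leaving out arrays ended the weaker calls. In control culture Ikzf2 no longer passed without CD4 control replicate 3 (limma adjusted p = 0.0549), and Capg passed without it (0.0242). In linoleic acid culture Ikzf2 and Ikzf4 no longer passed without CD4 linoleic acid replicate 2 (0.0649 and 0.0577), and Entpd1 passed without CD8 linoleic acid replicate 1 (0.0492). Capg, averaged over both cultures, no longer passed when any of 6 single arrays was left out: CD4 linoleic acid replicates 2 and 3, CD4 control replicates 1 and 2 and CD8 control replicates 2 and 3 (0.0505 to 0.062). Without all arrays of number 2, 4 genes passed in each culture, namely Foxp3, Il2ra, Lrrc32 and Gpr83, while over all genes the calls dropped to 62 with linoleic acid (291 with all arrays) and 65 in control culture (280). Nrp1 was lost there as well, at differences of 1.58 (adjusted p = 0.15, limma) with linoleic acid and 1.82 (0.0752) in control culture, and Ikzf2 at 0.75 (0.446) and 0.88 (0.253). Ikzf4 with linoleic acid was lost too, at 0.73 (0.343). Ikzf2 was also lost in control culture without number 1 (0.053) or 3 (0.0633), and Ikzf4 with linoleic acid without number 3 (0.0578), whereas Entpd1 with linoleic acid passed without number 1 (0.0201). Of the averaged calls, that of Capg was lost without number 1, 2 or 3 (0.121, 0.282 and 0.0553), that of Entpd1 without 2 or 3 (0.255 and 0.0939) and that of Ikzf4 without 2 (0.0586).

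Other regulatory T cell signature genes formed a list of 31 names, of which 27 were tested. In CD4 T cells 11 were called higher and 1 lower with linoleic acid, and 13 higher and 1 lower in control culture. Over all tested genes 1.31% were called higher and 0.719% lower with linoleic acid, and 0.929% and 1.03% in control culture. The secreted matrix protein Ecm1 stood at 2.73 and 2.58, the costimulatory receptor Tnfrsf4 (OX40) at 1.96 and 2.03 and the cytokine signalling inhibitor Socs2 at 2.23 and 1.68 in linoleic acid and control culture. The lower member was Itgae (CD103), an integrin chain also carried by CD8 T cells, at -2.22 and -2.70. Il10, an inhibitory cytokine, lay below the limit for low values and was not tested.

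**Figure D3:**
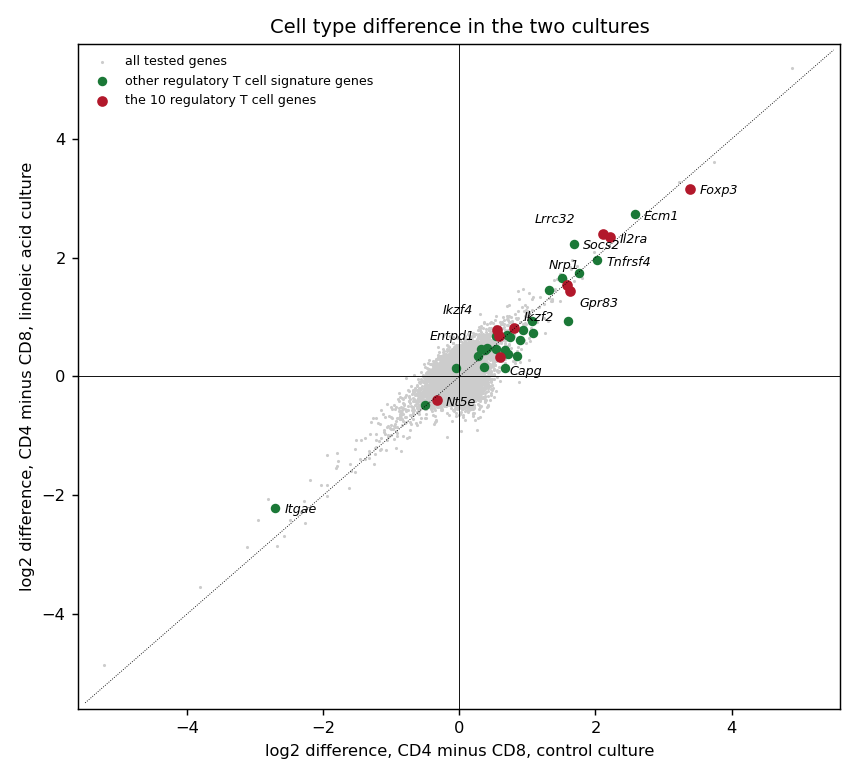
Log2 difference between CD4 and CD8 T cells in linoleic acid culture (y axis) and in control culture (x axis) for all 14323 tested genes (grey), 27 other regulatory T cell signature genes (green) and the 10 regulatory T cell genes (red), with the line of equal difference dotted. Of the 10, 9 lie above and right of 0 and Nt5e below and left of it, and Itgae lies far from the other signature genes.

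Pathway genes around the 10 were counted in the same way, where 2.03% of all genes with linoleic acid and 1.95% in control culture were called in either direction. Of 9 tested interleukin-2 receptor signalling genes, Cish, a feedback inhibitor of STAT5 signalling, was higher in CD4 T cells in both cultures (0.79 with linoleic acid and 0.83 in control culture), Stat5b with linoleic acid (0.77, against 0.43 and limma adjusted p = 0.261 in control culture), and the survival factor Bcl2 was lower in control culture (-1.23, against -0.70 and limma adjusted p = 0.106 with linoleic acid). Of 13 TGF-beta genes, Itgb8, an integrin chain that releases active TGF-beta, was the one called, at 0.64 with linoleic acid and 0.65 in control culture. Among 8 genes listed for purine and adenosine handling, the ATP-gated channel P2rx7 (1.26 and 1.48) and the adenosine kinase Adk (0.95 and 1.10) were higher. Dpp4 (CD26) of that list was lower (-1.24 and -1.08). Of 21 regulators and partners of FOXP3, Ezh2, a histone methyltransferase, was called in both cultures (0.79 and 0.71), and Runx1, which binds FOXP3, at 1.001 with linoleic acid (0.75, limma adjusted p = 0.0534, in control culture). Hif1a, the hypoxia factor, was also called with linoleic acid (0.63, against 0.43 and limma adjusted p = 0.24 in control culture). Dapl1 was the one gene called of 7 tested that are known to be lower in regulatory than in conventional CD4 T cells, at -1.31 and -1.33.

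Closest to the profile of Foxp3 over the 12 arrays, by the root mean square difference of values centred on each gene's mean, were the sialyltransferase St8sia6 (0.24), the helper ligand Cd40lg (0.36) and Ecm1 (0.39). Il2ra (0.54) and Lrrc32 (0.58) came next, ahead of Itih5 (0.66) and the adaptor Trat1 (0.70). The profile of Il2ra was closest to that of Lrrc32 (0.23), before Ecm1 (0.26), Tnfrsf4 (0.27), Itih5 (0.28), Socs2 (0.30) and Tmem64 (0.33). Nt5e lay at 1.85 from Foxp3, and Ikzf2, Ikzf4, Entpd1 and Capg at 1.25 to 1.42. The measure counts the size of the cell type difference as well as its shape.

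In CD4 T cells none of the 10 genes passed between linoleic acid and control culture. Foxp3 averaged 9.49 ± 0.25 (SD, n = 3) with linoleic acid and 9.50 ± 0.17 in control culture, a difference of -0.01 with a 95% interval of -0.36 to 0.33. Il2ra averaged 9.31 ± 0.24 and 9.38 ± 0.20 (interval -0.40 to 0.27), and Lrrc32 7.07 ± 0.32 and 7.10 ± 0.39 (-0.44 to 0.37). Over the 10 genes the differences ran from -0.14 (Gpr83) to 0.11 (Ikzf4), 9 of them below 0 with a median of -0.08, where 51.4% of all genes lay below 0 and the median was -0.00. In limma without a block 0 of 10 passed (0% of all genes) and 0 had an unadjusted p under 0.05 (2.6% of all genes). The widest interval of that fit was that of Nrp1, from -0.61 to 0.40. Gpr83 was the one gene whose treated arrays (6.62 to 6.86) all lay below the control arrays (6.86 to 6.97), before rounding, as for 4.52% of all genes.

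In CD8 T cells 0 of 10 passed in limma as well (0% of all genes) and 0 had an unadjusted p under 0.05 (5.08% of all genes). With the replicate number as a block 0 of 10 passed and 1, Lrrc32, had an unadjusted p under 0.05 (13.5% of all genes). Foxp3 averaged 6.33 ± 0.25 with linoleic acid and 6.11 ± 0.13 in control culture (0.22, interval -0.12 to 0.56). Lrrc32 had the largest difference, with 4.66 ± 0.06 and 4.99 ± 0.07, or -0.33 (interval -0.73 to 0.07, limma adjusted p = 0.757). With the block its SE was 0.15 and its limma adjusted p was 0.358. Its same-numbered arrays differed by -0.26, -0.25 and -0.48. Its treated arrays all lay below the control arrays, as for 5.7% of all genes. These Lrrc32 values lie in the background range named above. The other 8 differences ran from -0.22 (Entpd1) to 0.17 (Capg), and 7 of the 10 lay below 0, beside 63.1% of all genes.

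**Figure D4:**
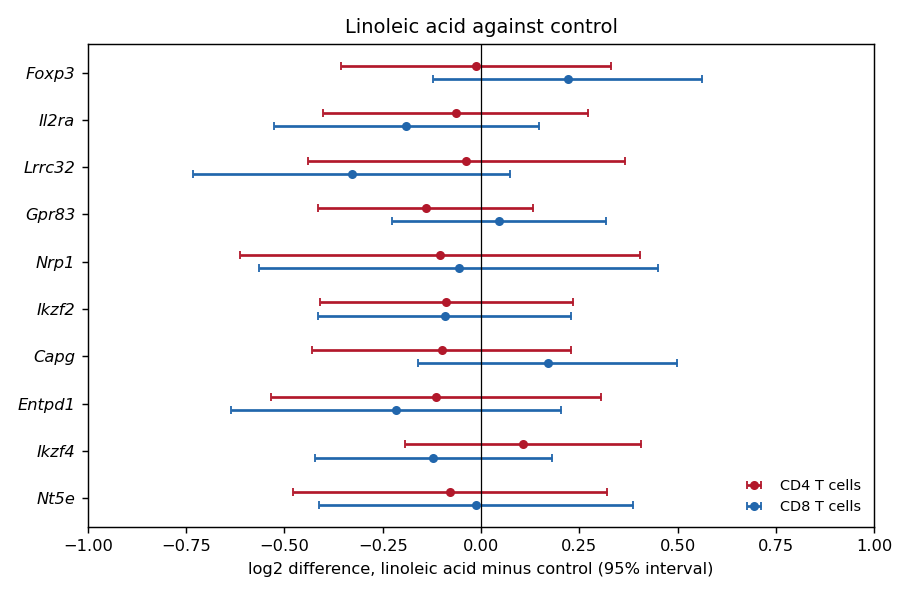
Log2 difference between linoleic acid and control culture (x axis) with its 95% interval for each gene in CD4 and in CD8 T cells. Each of the 20 intervals, from the fit without a block, includes 0, and they reach from -0.73 to 0.56.

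The question of the series, whether the response differs between CD4 and CD8 T cells, gave 0 of 10 genes past the threshold in limma (0% of all genes), none with an unadjusted p under 0.05 (2.35% of all genes). The CD4 response minus the CD8 response ran from -0.27 (Capg) to 0.29 (Lrrc32), with 5 genes to each side of 0. For Foxp3 it was -0.23 with a 95% interval of -0.72 to 0.25, for Il2ra 0.13 (-0.35 to 0.60) and for Ikzf2 0.00 (-0.45 to 0.46). With 3 arrays a group, differences of up to 0.86 log2 units stayed within these intervals. The intervals and p-values are from the fit without a block, which leaves the pairing of numbers out. With the replicate number as a block 0 of 10 passed in limma. The smallest unadjusted p of the 10 was then 0.186 (Lrrc32), while 8.3% of all genes lay under 0.05. The SE of Lrrc32 was 0.26 without the block and 0.21 with it.

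The pathway lists were read in the same comparison, with 0 members called in any. The regulators and partners of FOXP3 were the longest list that leaned to one side. All 21 had a CD4 response above their CD8 response, with a median of 0.32, where 57.1% of all genes did and the median was 0.04. In limma without a block 0 of 21 had an unadjusted p under 0.05. The lean was not particular to that list: 11 of 13 TGF-beta genes (median 0.31), 8 of 9 interleukin-2 receptor signalling genes (0.18) and 7 of 7 genes known to be lower in regulatory T cells (0.20) also lay above 0, against 13 of 27 other signature genes and 4 of 8 purine genes. In CD4 T cells 18 of 21 lay above control (48.6% of all genes), Nr4a1, an early response receptor of T cell activation, at 0.71 and Bach2, a repressor that keeps T cells quiescent, at 0.25. In CD8 T cells 18 of 21 lay below control (63.1% of all genes), Gata3, the factor of the Th2 lineage, at -0.36, whereas Nr4a1 stood at 0.64. The count was 19 of 21 without CD8 linoleic acid replicate 3 and 17 of 21 with arrays quantile normalized again. That array had the highest mean of the receptor genes used as a background gauge, 3.46, where the other 11 ranged from 2.99 to 3.41, and its part in the count beyond this was not tested.

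Arrays with the same number shared deviations in some of the 10 genes. Nrp1 and Nt5e were above their group mean in all 4 arrays numbered 1, by 0.31 and 0.26 on average. Nrp1 was below it in all 4 arrays numbered 3, by 0.21 on average, and Nt5e in all 8 arrays numbered 2 or 3. Il2ra was below its group mean in all 4 arrays numbered 1 (0.15 on average) and above it in all 4 numbered 2 (0.14). Lrrc32 was lowest in number 3 in both CD4 groups, at 6.70 with linoleic acid and 6.66 in control culture, whereas Foxp3 had no number above or below its mean in all 4 groups. The B cell marker means given above were lowest in number 1 in every group, where Nrp1 and Nt5e were highest in 3 and 4 of the 4 groups. Their part in these levels was not tested.

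**Figure D5:**
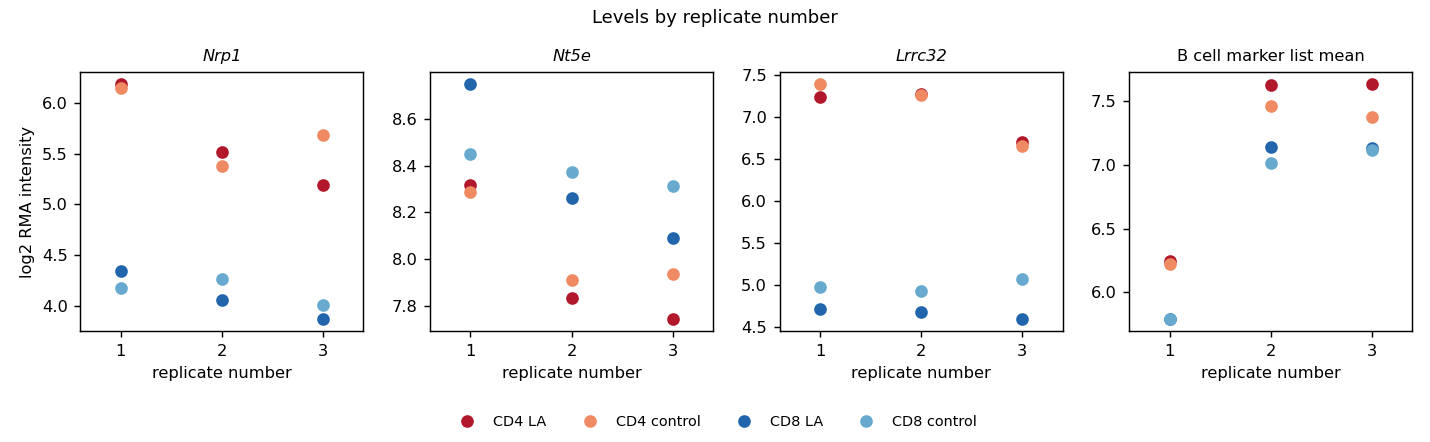
Log2 RMA intensity of Nrp1, Nt5e and Lrrc32 and the mean of 13 B cell markers (y axes, 1 panel each) by replicate number, coloured by group. Nt5e is highest in number 1 within each group and the B cell mean is lowest there, and Lrrc32 is lowest in number 3 in both CD4 groups.

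Markers of other spleen cells were set beside the cell type difference. In CD4 T cells 13 of 13 B cell markers lay higher than in CD8 T cells over both cultures, with a median of 0.45 and 0 called without a block. Of 14 myeloid markers 13 lay higher, with a median of 0.14 and 1 called (Ctss, a lysosomal protease, at 0.40). Over both cultures without a block, 52% of all tested genes lay higher, 2.76% were called higher and 1.95% lower. The mean of the 15 measured myeloid markers was 5.42 to 6.19 in CD4 and 5.23 to 6.12 in CD8 arrays. That of the 7 platelet markers, cells that also carry Lrrc32, was 4.94 to 5.15 in CD4 and 4.80 to 5.06 in CD8 arrays, with the platelet chemokines Pf4 and Ppbp between 3.61 and 4.49 on every array. Of 4 tested platelet markers Itgb3, an integrin chain, was called higher (1.09), of 9 dendritic cell markers 0 were called, and of 6 tested NK cell markers Klrd1 and Eomes, which CD8 T cells also use, were called lower (-2.63 and -1.63). With the replicate number as a block, the fit in which Entpd1 passed with linoleic acid, 7 of 13 B cell markers were called higher in that culture, 4 in control culture and 9 over both, beside 3.79%, 2.09% and 5.45% of all genes. In the same fit 5 of 14 myeloid markers were called higher over both cultures. Cd79a, a chain of the B cell receptor, ran from 8.82 to 10.7 in CD4 arrays and from 8.10 to 10.3 in CD8 arrays. Same-numbered arrays gave CD4 minus CD8 differences of 2.77 to 3.70 for Foxp3, 1.89 to 2.58 for Il2ra and 1.59 to 2.59 for Lrrc32. These ranges include control culture, where the numbers were not taken as pairs. The part of these cells in the differences of any of the 10 genes was not tested.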

How the data were processed

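Total RNA of 12 sorted samples was hybridized to single-colour Affymetrix MoGene-2_0-st arrays, per the labels' protocols. The deposited values are log2 intensities summarized with RMA (background correction, quantile normalization, 1 value per probe set), per the submitters' processing notes; the labels used here give no software version or build. Of 41345 probe sets 23521 carried 1 symbol in the platform annotation. A gene was represented by its probe set with the highest mean, and genes with a mean under the 40th percentile of all probe sets (log2 4.28) were not tested. Group means of all 12 arrays were contrasted in limma 3.58.1 (R 4.3.3, lmFit and eBayes, two-sided, 8 residual and 5.67 prior degrees of freedom) with Benjamini-Hochberg adjustment over 14323 genes at 0.05, and checked on simulated data. The number of arrays limits precision.

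The 10 genes, the other lists, tests and alternatives were chosen with earlier results of these data known. Named were the 10 genes, at most 4 members of another list by smallest p, and the 5 nearest profiles to Foxp3 and Il2ra. Itgae, Bach2, Gata3, Il10, Tigit, Ccr4 and the cell type markers were named after their values were seen. Deviations of same-numbered arrays correlated across genes at 0.19 to 0.61 between linoleic acid and control arrays and at 0.26 to 0.58 between CD4 and CD8 arrays with linoleic acid, so numbers were taken as pairs there, from the data and not the labels. Between CD4 and CD8 control arrays the correlations were 0.54, -0.01 and 0.42 for numbers 1, 2 and 3, so they were not taken as pairs. Platform and RefSeq symbols matched by Entrez identifier for 10 of 10 genes.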

Additional observations from a re-analysis of the deposited data

How the results depend on the processing

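No other setting changed the direction of a cell type difference of the 10 genes. The replicate block added calls between CD4 and CD8 T cells in limma. In control culture, where the numbers were not taken as pairs, these were Ikzf4 (limma adjusted p = 0.0217) and Capg (0.0239). The others were Entpd1 (0.0424) with linoleic acid and Nt5e, lower, over both cultures (0.00993). The block gave 8 calls in either culture and 10 over both, and 0 of 10 for each linoleic acid comparison; it changed no other call. Over all genes it raised the calls to 630 in control culture (280 without it), 798 with linoleic acid (291) and 1322 over both (674). Ikzf4 in control culture also passed with the filter at the 60th percentile (0.049) or after a second quantile normalization (0.0221), as did Nt5e over both cultures (0.0307) after that normalization; Ikzf4 with linoleic acid did not pass in a fit of those groups alone (0.0537). With arrays left out, the calls among the 10 ran from 4 to 8 with linoleic acid, from 4 to 6 in control culture and from 6 to 9 over both, while those over all genes ran from 62 to 322, from 65 to 230 and from 172 to 744. An arm left with 2 arrays was taken to vary like the other groups.

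Linoleic acid differences, none called, changed sign in places, and the cause was not tested. A second quantile normalization gave 0.028 for Ikzf2 and 0.11 for Nt5e in CD8 T cells, and -0.015 for Il2ra, -0.10 for Ikzf2 and 0.058 for Nrp1 as CD4 minus CD8. Median centring gave -0.010 for Gpr83 in CD8 T cells and 0.015 for Nrp1 as CD4 minus CD8. With arrays left out, the CD4 values ran from -0.12 to 0.13 for Foxp3, -0.20 to 0.048 for Il2ra, -0.15 to 0.026 for Ikzf2, -0.034 to 0.20 for Ikzf4, -0.26 to 0.15 for Lrrc32, -0.38 to 0.12 for Nrp1, -0.26 to 0.041 for Nt5e, -0.33 to 0.036 for Entpd1 and -0.32 to 0.048 for Capg. The CD8 values ran from -0.28 to 0.018 for Ikzf2, -0.24 to 0.023 for Ikzf4, -0.016 to 0.16 for Gpr83, -0.18 to 0.054 for Nrp1, -0.20 to 0.13 for Nt5e and -0.54 to 0.017 for Entpd1. CD4 minus CD8 ran from -0.013 to 0.25 for Il2ra, -0.13 to 0.19 for Ikzf2, -0.32 to 0.17 for Nrp1, -0.24 to 0.12 for Nt5e and -0.35 to 0.57 for Entpd1. Signal over background limits Nrp1 and Entpd1, whose means over the 12 arrays (4.90 and 5.10) lay under log2 5.11, and Lrrc32 and Capg, with 6 and 4 of their 6 CD8 values under it.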
